A study of Mus musculus with 6 samples.

Results

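Cerebellins, neurexins and delta glutamate receptors form a bridge across the synapse. The genes described here are 4 cerebellins (Cbln1, Cbln2, Cbln3 and Cbln4), 2 neurexins (Nrxn2 and Nrxn3) and the delta glutamate receptor gene Grid1. They were taken by symbol, 7 of the 24594 entries of the count table, by a rule that uses no measured value, though the group was proposed with earlier results of these data known. Of the 7, 5 passed the filter on low counts and were tested, and Cbln2 and Cbln4 did not pass.

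Cerebellins are secreted proteins of the C1q family. In the cerebellum, granule cells release Cbln1 from their parallel fibres, where it binds neurexin on the presynaptic side and a delta glutamate receptor on the Purkinje cell dendrite, and so holds the parallel fibre synapse together. Cbln3 is secreted together with Cbln1, neurexins are presynaptic adhesion proteins made in long and short forms from separate promoters, and Grid1 encodes the delta receptor GluD1, found at synapses in many brain regions.

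The data were RNA-seq counts per gene from NeuN-positive nuclei sorted from the cerebellum, labelled as granule cells, of mice aged 7 months. The genotypes were Ezh1(wt/wt);Neurod1-Cre (WT, 3 libraries) and Ezh1(cKO/cKO);Neurod1-Cre (cKO, 3 libraries), so both carried the Cre recombinase named for the granule neuron factor Neurod1. The labels do not say how Cre was placed in the genome or which part of Ezh1 was deleted. Nor do they say whether each library came from its own animal. The p-values below therefore speak of the spread among these 6 libraries, and that spread may be technical in part. The study asked whether neurons that no longer divide need H3K27me3, the repressive histone mark written by Polycomb complex PRC2, to keep their genes regulated. Ezh1 encodes a catalytic subunit of PRC2.

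Libraries held 6340236 to 8284768 counts, and levels are given as CPM, the count in 1000000 counts of a library. Ezh1 itself was at 71.0, 75.7 and 83.3 CPM in WT replicates 1, 2 and 3 and at 52.5, 51.0 and 55.6 CPM in cKO replicates 1, 2 and 3 (log2 fold change -0.53, SE 0.10, adjusted p = 0.00672 by edgeR's quasi-likelihood test). Every cKO library was below every WT library. Replicate 1 of each genotype stood apart from the other libraries in Xist, a noncoding RNA that coats the inactive X, with 811 and 831 CPM against 1.39 to 4.46 CPM. The 15 granule cell markers summed to 4822 to 4940 CPM in WT and 4618 to 5644 CPM in cKO, and Gabra6, the receptor subunit gene that defines mature granule cells, was at 159 ± 8.77 CPM in WT and 157 ± 5.54 CPM in cKO (SD, n = 3). EdgeR called 2 of the 15. Neurod1 rose from 142 ± 10.4 to 307 ± 17.7 CPM (log2 fold change 1.11, SE 0.082, adjusted p = 8.03e-10) and Neurod2, a related factor, fell from 86.3 ± 7.95 to 63.8 ± 3.98 CPM (-0.44, SE 0.096, adjusted p = 0.0269). Markers of other cells were also present. Purkinje markers summed to 454 to 713 CPM, most of it Itpr1 (340 to 557 CPM), with Pcp2 at 7.52 to 13.4 CPM. Markers of inhibitory interneurons summed to 122 to 158 CPM, of oligodendrocytes to 236 to 660 CPM (highest in cKO replicate 3, with positive estimates for 8 of 8) and of microglia and vessels to 18.6 to 27.4 CPM, and edgeR called no gene of these last 3 lists (0 of 9, 8 and 3 tested, with 2, 0 and 0 at an unadjusted p below 0.05). Markers of astrocytes and Bergmann glia summed to 113 to 139 CPM, with negative estimates for 5 of 7 (median -0.38). Those of unipolar brush cells summed to 290 to 316 CPM. Among them Eomes was at 15.7, 6.13 and 8.98 CPM in WT and 21.6, 18.7 and 21.1 CPM in cKO, without overlap and without passing the test (log2 fold change 1.00, SE 0.25, adjusted p = 0.0868 by edgeR). The part of these cells in the levels below was not tested.

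Promoter sequence bears on the study's question, since unmethylated, CG-rich promoters are the usual sites of PRC2 in the mammalian genome. RefSeq promoter windows (GRCm38.p6) matched Cbln3, Cbln4 and Nrxn3, and Cbln2 was left out of the search. A cerebellin that granule cell nuclei expressed, a cerebellin near 0 and the most downstream of the 3 listed starts of Nrxn3 are shown, each as the 250 bases before the start, 5′ to 3′, with each CG pair in capitals.
Cbln3, chr14:55884257-55884506, minus strand: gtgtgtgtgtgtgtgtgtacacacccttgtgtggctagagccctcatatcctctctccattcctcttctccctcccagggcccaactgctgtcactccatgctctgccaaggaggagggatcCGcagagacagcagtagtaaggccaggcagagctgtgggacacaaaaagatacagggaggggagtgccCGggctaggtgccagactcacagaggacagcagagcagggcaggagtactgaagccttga
Cbln4, chr2:172043467-172043716, minus strand: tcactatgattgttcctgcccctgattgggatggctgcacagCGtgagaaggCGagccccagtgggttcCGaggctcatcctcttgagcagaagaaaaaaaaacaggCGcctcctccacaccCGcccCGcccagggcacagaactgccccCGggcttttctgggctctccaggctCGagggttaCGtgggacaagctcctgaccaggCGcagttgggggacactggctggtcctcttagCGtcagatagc
Nrxn3, chr12:89812233-89812482, plus strand: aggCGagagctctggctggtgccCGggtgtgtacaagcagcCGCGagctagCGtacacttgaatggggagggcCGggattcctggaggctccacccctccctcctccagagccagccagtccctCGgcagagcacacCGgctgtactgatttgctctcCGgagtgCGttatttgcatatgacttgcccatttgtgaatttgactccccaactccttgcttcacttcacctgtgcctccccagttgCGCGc
The Cbln3 window held 2 CG pairs, and 81.2% of the 32851 windows of this length in the table held as many or more. The Cbln4 window held 11 (35.6% held as many or more) and the Nrxn3 window 12 (33.5%), against a median of 6. The other 2 listed Nrxn3 starts had 2 and 5 CG pairs before them. No window lay at the start of the Nrxn3 span (88722701), and the first listed one began at 88794254. The letters CAGATG, an E-box of the kind NeuroD factors bind, were searched on both strands and were in none of these 5 windows. They were in 14.4% of all windows, and their absence here says only that these letters are not in these bases.

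None of the 5 tested genes passed the test for a difference between the genotypes. EdgeR called 0 of 5 at an adjusted p below 0.05, against 0.579% of all 13115 genes tested (0.32% higher and 0.259% lower in cKO). DESeq2 and limma-voom also called 0, and 0 had an unadjusted p below 0.05 in edgeR. The libraries of the genotypes overlapped for all 5, where 16.3% of all tested genes were separated. For Cbln1, Cbln3, Nrxn2 and Nrxn3 the whole 95% interval of the log2 fold change lay within 0.25 of 0, and for Grid1 it did not.

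**Figure D1:**
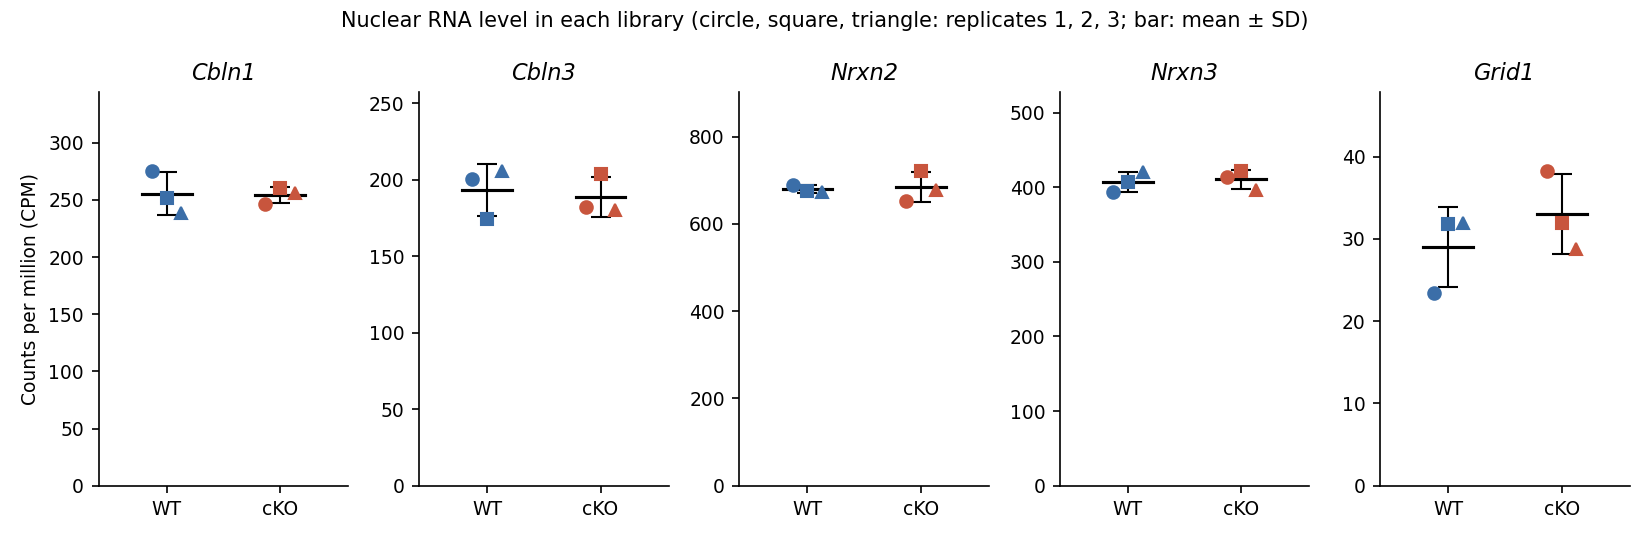
Level of the 5 tested genes in each library, in CPM on axes that start at 0. Blue is WT and red is cKO, the symbols mark replicates 1, 2 and 3, and lines show the mean and SD of 3 libraries. The genotypes overlap in every panel, and Grid1, at 23.4 to 38.3 CPM, is the lowest and varies the most between libraries.

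The ligand Cbln1 (NCBI gene 12404; chromosome 8, 87468853 to 87472592, minus strand, GRCm38) was at 275, 252 and 239 CPM in WT replicates 1, 2 and 3 and at 246, 260 and 256 CPM in cKO replicates 1, 2 and 3. The highest and the lowest value were both WT, and the cKO libraries lay between them. Means were 255 ± 18.7 CPM in WT and 254 ± 6.98 CPM in cKO (SD, n = 3). The log2 fold change of cKO over WT was -0.0055 (SE 0.078, adjusted p = 0.988 by edgeR), with a 95% interval of -0.17 to 0.15, that is, between 10.8% lower and 11.3% higher.

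Cbln3, whose product depends on Cbln1 to leave the cell (NCBI gene 56410; chromosome 14, 55878920 to 55884256, minus strand), was at 201, 174 and 206 CPM in WT and 182, 204 and 180 CPM in cKO, in replicate order. The lowest library was WT replicate 2, and WT replicate 3 and cKO replicate 2 were nearly level at the top. The log2 fold change was -0.037 (SE 0.084, 95% interval -0.21 to 0.14, adjusted p = 0.908 by edgeR).

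Per kb of exon, the level of Cbln1 was 2.12 ± 0.239 times that of Cbln3 in WT and 2.16 ± 0.116 times in cKO (SD, n = 3). The ratio ran from 1.86 to 2.32 in WT and from 2.05 to 2.28 in cKO. WT replicate 3 had the lowest ratio and WT replicate 2 the highest, so the cKO values again lay inside the WT range.

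Cbln2 and Cbln4 were close to absent from these nuclei. Cbln2 (NCBI gene 12405), which other brain regions use, had 4, 1 and 0 counts in the WT libraries, against 4, 0 and 2 in cKO. Cbln4 (NCBI gene 228942; chromosome 2, 172036336 to 172043466, minus strand) had 0 counts in each WT library and 3, 2 and 2 in the cKO libraries. A count of 0 allows up to 3 counts, or 0.364 to 0.463 CPM in these libraries (counting error only), and no Cbln4 count lay above 3, so the depth cannot separate the genotypes. With no filter on low counts, edgeR gave adjusted p = 0.960 for Cbln2 and 0.411 for Cbln4.

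On the presynaptic side, the receptor gene Nrxn2 (NCBI gene 18190; chromosome 19, 6418756 to 6533217, plus strand) was at 689, 675 and 673 CPM in WT and 653, 722 and 678 CPM in cKO. The 3 WT libraries lay close together, with cKO replicate 1 below and cKO replicate 2 above them. The log2 fold change was 0.012 (SE 0.067, 95% interval -0.13 to 0.15, adjusted p = 0.969 by edgeR), which bounds the change between 8.36% lower and 10.9% higher.

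Nrxn3 (NCBI gene 18191; chromosome 12, 88722701 to 90334935, plus strand) spans 1612 kb and was at 393, 408 and 421 CPM in WT and 413, 422 and 396 CPM in cKO. Its libraries differed by at most 1.07-fold, the narrowest range among the 5 genes. The log2 fold change was 0.012 (SE 0.071, 95% interval -0.13 to 0.16, adjusted p = 0.969 by edgeR). Per kb of exon, Nrxn2 was at 1.52 ± 0.071 times the level of Nrxn3 in WT and 1.52 ± 0.069 times in cKO (SD, n = 3). The counts are summed over a whole gene, so the long and short forms of a neurexin and its alternative exons were not separated.

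Grid1, the postsynaptic partner (NCBI gene 14803; chromosome 14, 34820003 to 35583387, plus strand, a span of 763 kb), was at 23.4, 31.8 and 31.9 CPM in WT and 38.3, 32.0 and 28.8 CPM in cKO. WT replicate 1 was the lowest and cKO replicate 1 the highest, while cKO replicate 3 lay below WT replicates 2 and 3. Means were 29.0 ± 4.86 CPM in WT and 33.0 ± 4.83 CPM in cKO (SD, n = 3). The estimate on the log2 scale was 0.18 (SE 0.14; edgeR adjusted p = 0.671) with a 95% interval of -0.11 to 0.48, which runs from 7.47% lower to 39.2% higher in cKO. Leaving out WT replicate 1 brought the estimate to 0.053, and leaving out cKO replicate 1 to 0.062. These were also the libraries high in Xist, and a link between Xist and Grid1 was not tested.

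Grid1 is a gene that several kinds of neuron use, and markers of other cells moved with 1 of its extreme libraries. The 4 markers of excitatory neurons of the cerebellar nuclei (Slc17a6, Tbr1, Meis2 and Lhx9, of which Meis2 alone was tested) summed to 13.5 CPM in cKO replicate 1 and to 1.21 to 3.69 CPM in the other libraries. Of the 13.5 CPM, Meis2 gave 7.63 and Lhx9 3.74, while Tbr1, at 0.432 CPM there, was higher in both WT replicates 1 and 2 (1.21 and 1.11 CPM) and in cKO replicate 3 (1.39 CPM). The Purkinje sum was 656 CPM there, but it was highest in WT replicate 1 (713 CPM), where Grid1 was lowest. The part of these cells in the Grid1 level was not tested, and in bulk RNA fewer cells of a kind and less RNA per cell cannot be told apart.

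By the rule for likeness, the genes whose log2 CPM followed Grid1 most closely over the 6 libraries, among 8028 genes averaging 10 CPM or more, were Wdfy2 (Pearson r = 0.971), the zinc finger gene Zfp689 (0.970) and Galnt2, which encodes a glycosyltransferase (0.966). All 3 were lowest in WT replicate 1 and highest in cKO replicate 1. With so few libraries and so many genes, such values of r describe these libraries only.

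Compared per kb of exon, the levels fell in a fixed order. Cbln1 was at 83.9 CPM per kb (SD 4.16 over 6 libraries), Nrxn2 at 49.4 (SD 1.65), Cbln3 at 39.3 (SD 2.84), Nrxn3 at 32.4 (SD 0.969) and Grid1 at 5.20 (SD 0.814). Each of these genes was above the next in all 6 libraries, with no overlap of their ranges. Cbln2 and Cbln4 followed at 0.0937 and 0.0602 CPM per kb and were not distinguishable from each other. Among 12506 tested genes with an exon length, Cbln1 lay at percentile 99.5, Nrxn3 at 96.3 and Grid1 at 58.5. The sources used here do not say whether intron reads were counted, which matters most for nuclear RNA of long genes. Per kb of the whole span, Cbln3 was above Nrxn2 (35.8 against 5.96 CPM per kb) and Nrxn3 was at 0.254 CPM per kb.

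**Figure D2:**
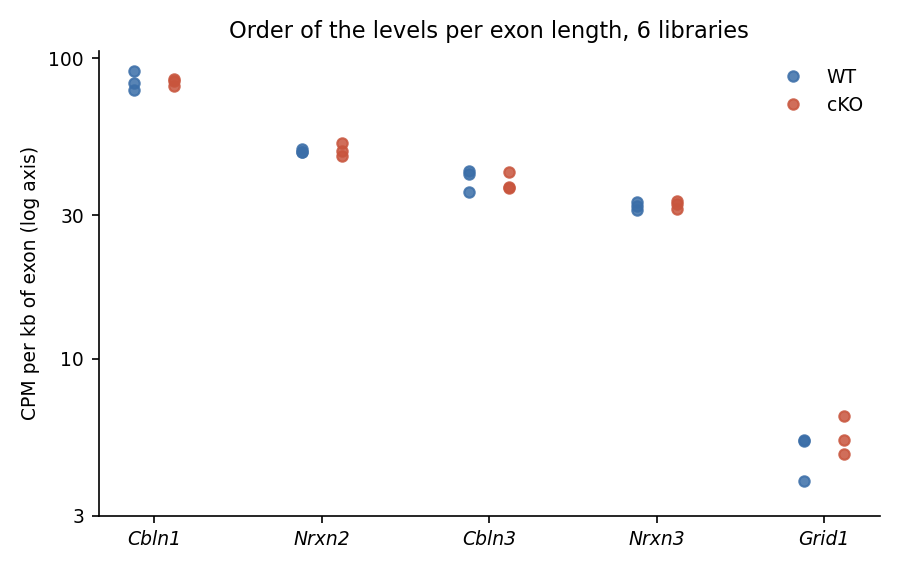
CPM per kb of exon (log axis) of the 5 tested genes, with WT libraries in blue and cKO libraries in red. Cbln1 is highest at 78.5 to 90.7 CPM per kb and Grid1 lowest at 3.93 to 6.42, and blue and red points overlap for each gene.

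The precision of each gene was close to that of other genes of like level. The log2 interval of Cbln1 was 0.320 wide, against a median of 0.327 for the 304 genes nearest its level, that of Nrxn2 0.275 against 0.283 for 65 genes, and that of Grid1 0.589 against 0.555 for 1439 genes. Over all tested genes the median width was 0.726, and 8.04% had an interval within 0.25 of 0. Among genes of like level that share was 47.0% for Cbln1, 48.6% for Cbln3, 70.8% for Nrxn2 and 49.1% for Nrxn3, so such an interval is common at these levels. Counting error alone gives a coefficient of variation of 2.37% for Cbln1 and 6.78% for Grid1. Observed values were 7.33% and 16.8% in WT and 2.74% and 14.6% in cKO.

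**Figure D3:**
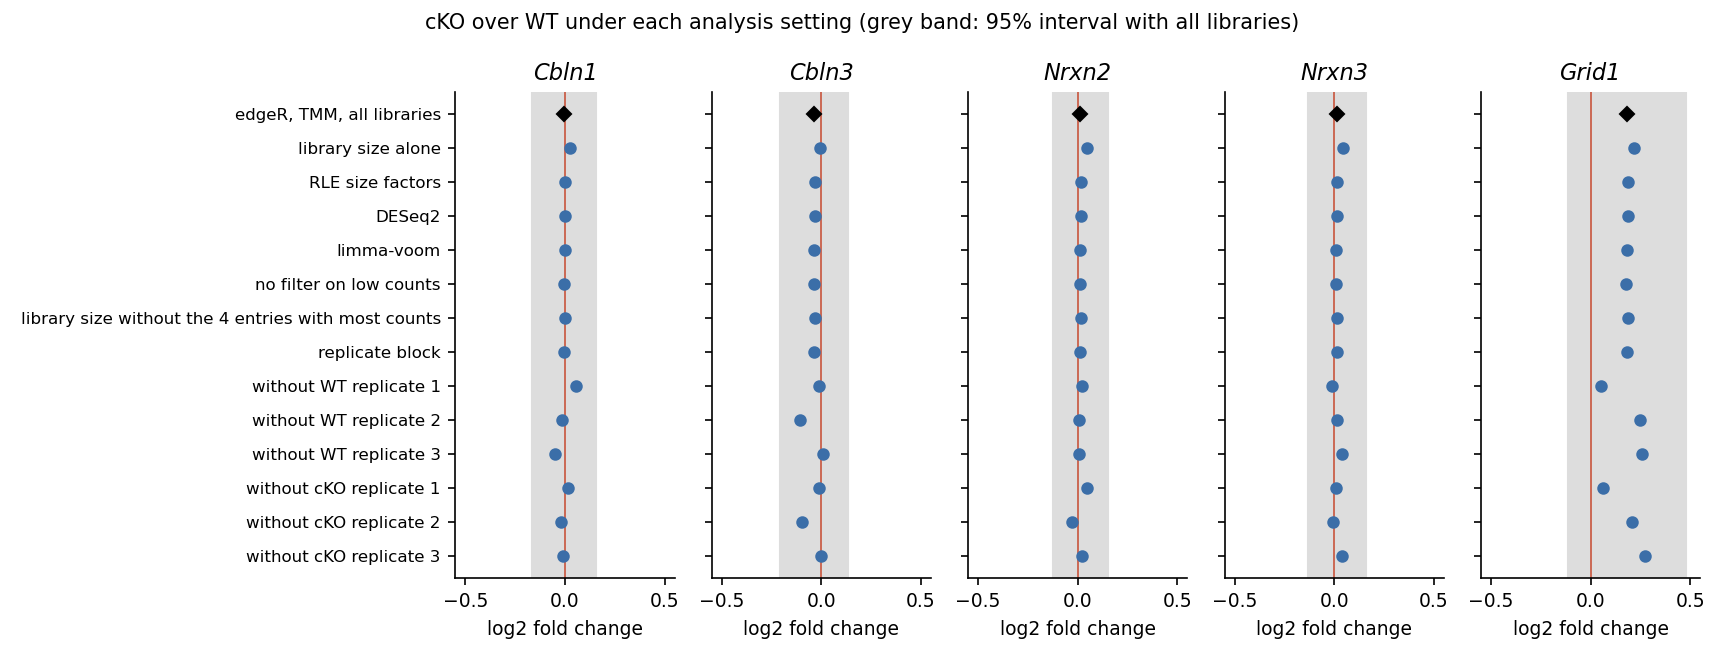
Log2 fold change of cKO over WT for the 5 tested genes with all libraries (black diamond), and under each of the 13 alternatives (blue): other tools, scalings and filters, a replicate block, and without each library in turn. The grey band is the 95% interval with all libraries. Every blue point lies inside the band. Grid1 ranges from 0.053 to 0.27, and the other 4 genes stay between -0.11 and 0.053.

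Cbln1 shares its place with the long noncoding RNA gene Gm2694. RefSeq puts Gm2694 at 87472812 to 87525554 on chromosome 8, 219 bases beyond Cbln1. GENCODE M21 puts it on the plus strand at 87460469 to 87525554, across all 3740 bases of Cbln1. Only spans were compared, not exons. Where exons of the 2 genes overlap, reads counted without strand cannot be told apart. Gm2694 was at 173, 136 and 165 CPM in WT and 166, 186 and 158 CPM in cKO (log2 fold change 0.11, SE 0.091, adjusted p = 0.706 by edgeR), and the genotypes overlapped. Its counts were 0.619 ± 0.0759 of those of Cbln1 in WT and 0.668 ± 0.0489 in cKO (SD, n = 3), with no correction for length.

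Cbln3 lies 555 bases from Khnyn (chromosome 14, 55884812 to 55898780). Khnyn was at 252, 244 and 248 CPM in WT and 218, 232 and 221 CPM in cKO. Each cKO library was below each WT library, but the difference did not pass the test (log2 fold change -0.15, SE 0.075, adjusted p = 0.442 by edgeR, exact two-sided permutation p = 0.1, the smallest that 3 against 3 libraries allow). On the other side of Cbln3, Nynrin averaged 13.2 CPM in WT against 12.5 CPM in cKO (adjusted p = 0.924 by edgeR).

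Around Nrxn2, the log2 estimates were 0.17 for Rasgrp2 (adjusted p = 0.834) and -0.24 for Slc22a12 (0.725), and around Nrxn3, Adck1 had -0.11 (0.870) and Dio2 0.48 (0.515), all by edgeR. Wapl, before Grid1, had -0.044 (0.910). The microRNA gene Mir346 lies within the span of Grid1 and had 28 counts over the 6 libraries. RefSeq also places Gm14965 and Gm52381 over Nrxn2 at least in part, Gm40537 over Nrxn3, and Gm41133 and the pseudogene Gm19016 over Grid1. Only spans were compared, and where counted stretches overlap, reads without strand cannot be told apart from those of the host gene.

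In 6 lists by role, 45 other genes of the synaptic pathways of these proteins were followed. They do not all belong to the parallel fibre synapse. The nuclei were labelled as granule cells, so the Purkinje cell side of that synapse was not measured by itself. Which cells gave the RNA of the postsynaptic genes was not tested. EdgeR tested 36 of the 45 genes and called 0 (0.579% of all tested genes were called), as did DESeq2 and limma-voom. At an unadjusted p below 0.05 there were 7 of 36 (19.4%), against 11.9% of all tested genes. The genotypes did not overlap for 3 of 36 (8.33%; Nlgn2, Car11 and Nxph3), a smaller share than the 16.3% of all tested genes. The median log2 fold change was 0.056, with 25 of 36 positive, against -0.0060 and 48.8% for all tested genes. With no filter on low counts edgeR called 1, Homer3, as lower.

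**Figure D4:**
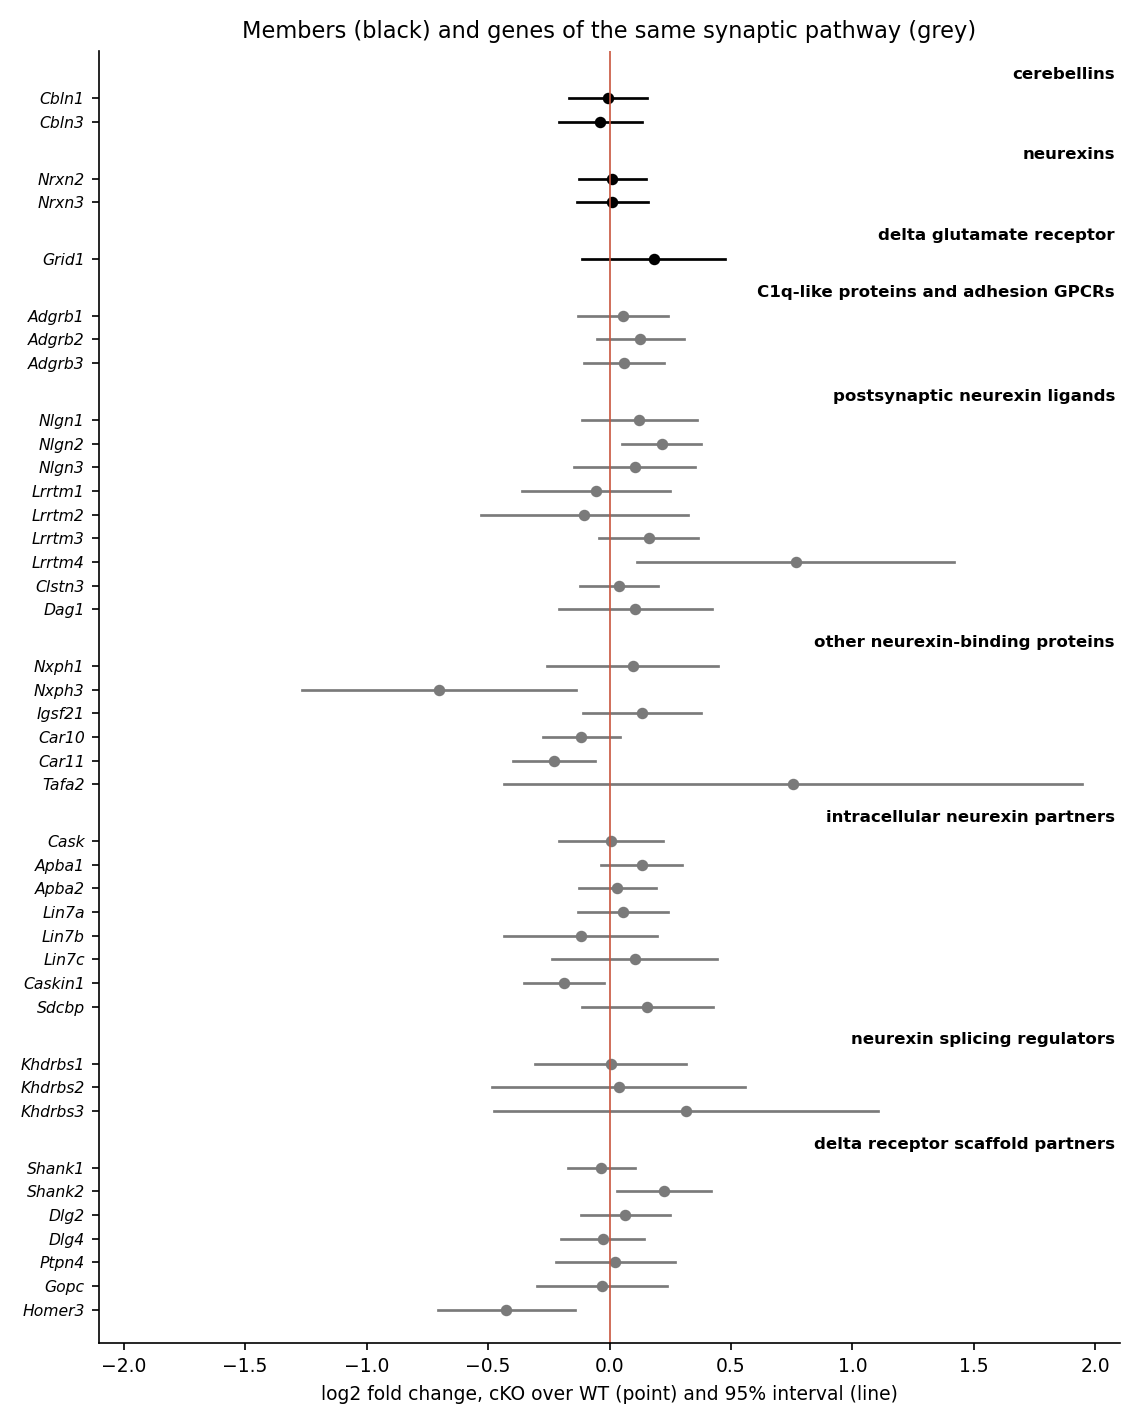
Log2 fold change of cKO over WT (points) with 95% intervals (lines) for the 5 tested members in black and the 36 tested pathway genes in grey, grouped by role. Intervals of the members all include 0. The 7 pathway genes whose intervals leave out 0 lie on both sides, with Nlgn2, Lrrtm4 and Shank2 to the right and Car11, Nxph3, Caskin1 and Homer3 to the left.

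Of 7 C1q-like proteins, relatives of the cerebellins, and adhesion receptors, 3 were tested and 0 called, with 0 at an unadjusted p below 0.05 (median 0.058). These were the receptors. Adgrb3, the receptor for C1q-like proteins on Purkinje cells, was at 254 ± 15.4 CPM in WT and 265 ± 20.9 CPM in cKO (adjusted p = 0.836 by edgeR), and Adgrb2 had a log2 fold change of 0.13 (0.624). C1ql1, which climbing fibres supply rather than granule cells, had 18 counts over the WT and 13 over the cKO libraries, and C1ql2 had 0 counts in all 6 libraries.

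All 9 postsynaptic ligands of neurexins were tested, with 0 called, 2 at an unadjusted p below 0.05, and 7 of 9 positive (median 0.11). Nlgn2, the neuroligin of inhibitory synapses, was at 193, 176 and 170 CPM in WT and 204, 211 and 210 CPM in cKO. Each cKO library was above each WT library, without passing the test over all genes (log2 fold change 0.21, SE 0.079, 95% interval 0.053 to 0.38, adjusted p = 0.244 by edgeR). Lrrtm4, a leucine-rich repeat ligand, was low, at 3.69 ± 0.815 CPM in WT and 6.22 ± 2.09 CPM in cKO (SD, n = 3; log2 fold change 0.77, adjusted p = 0.325 by edgeR).

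Of 11 other neurexin-binding proteins 6 were tested, with 0 called, 2 at an unadjusted p below 0.05, and a median of -0.011. Car11, a carbonic anhydrase-related protein that binds neurexins, was at 152, 172 and 153 CPM in WT and 132, 141 and 135 CPM in cKO. The genotypes did not overlap (log2 fold change -0.23, SE 0.083, adjusted p = 0.240 by edgeR). The neurexophilin gene Nxph3 was at 6.50, 11.6 and 7.28 CPM in WT and 3.88, 5.87 and 5.85 CPM in cKO, again without overlap (-0.70, SE 0.27, adjusted p = 0.280 by edgeR).

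Inside the nerve terminal, all 8 partners of the neurexin tail were tested, with 0 called and 1 at an unadjusted p below 0.05 (median 0.044). That was Caskin1, a scaffold that binds the kinase-like protein Cask, at 273 ± 23.9 CPM in WT and 240.0 ± 12.9 CPM in cKO (SD, n = 3; log2 fold change -0.19, adjusted p = 0.344 by edgeR). Apba1, the adaptor Mint1, had 0.13 (adjusted p = 0.556). The 3 Khdrbs genes, whose products steer an alternative exon of neurexins that governs cerebellin binding, had WT means of 22.5 CPM for Khdrbs1 and 6.84 CPM for Khdrbs2, and 2.31 to 5.02 CPM in the WT libraries for Khdrbs3. Of these 0 were called and 0 had an unadjusted p below 0.05. The log2 estimate for Khdrbs3 was 0.31 with an interval of -0.48 to 1.11 and that for Khdrbs2 was 0.038 with an interval of -0.48 to 0.56, so their low counts bound a change loosely.

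All 7 scaffold partners of delta receptors were tested, with 0 called and 2 at an unadjusted p below 0.05 (median -0.029). Homer3, a postsynaptic scaffold that is abundant in Purkinje cells, was at 65.6, 56.8 and 44.5 CPM in WT and 48.1, 35.7 and 40.2 CPM in cKO. WT replicate 3 lay below cKO replicate 1, so the genotypes overlapped (log2 fold change -0.42, SE 0.14, adjusted p = 0.178 by edgeR, and 0.0259 with no filter on low counts). Over the other alternatives its adjusted p ran from 0.119 to 0.550. The Purkinje marker Pcp2 was at 10.1, 7.52 and 8.98 CPM in WT and 13.4, 8.80 and 11.2 CPM in cKO, and the part of Purkinje cells in the Homer3 level was not tested. Shank2 was at 207 ± 25.1 CPM in WT and 242 ± 28.6 CPM in cKO (log2 fold change 0.22, adjusted p = 0.329 by edgeR).

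Nrxn3 and Grid1 are among the longest genes of the genome, which the rule for choosing them did not use. Tested genes with a span of at least 500 kb numbered 202. Their median log2 fold change was 0.10, with 144 of 202 positive (71.3%), and edgeR called 4, all higher in cKO. All tested genes had a median of -0.0060, with 48.8% positive, and edgeR called 0.579% of them (0.32% higher in cKO). Grid1, at 0.18, lay above the median of the long genes and Nrxn3, at 0.012, below it. The short genes Cbln1 and Cbln3 fell in the class under 10 kb (3270 genes, median -0.026), and Nrxn2 in that of 100 to 250 kb (1395 genes, median 0.047). The median of the long genes was 0.047 without cKO replicate 1 and 0.059 without WT replicate 2.

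**Figure D5:**
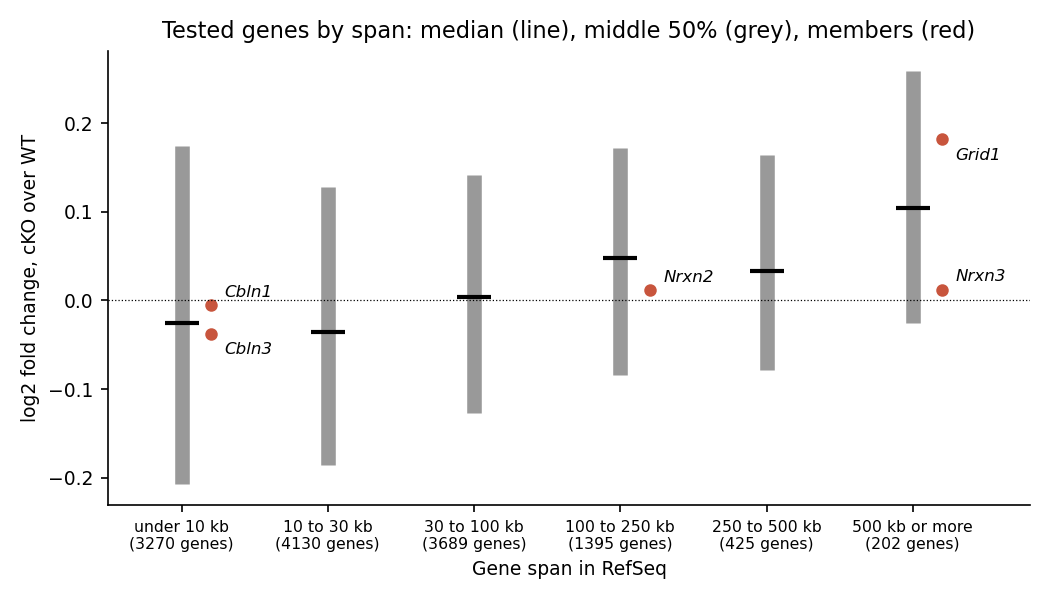
Log2 fold change of cKO over WT for all tested genes in 6 classes of span, with the median as a black line, the middle 50% as a grey bar and the 5 members as red points. The medians run from -0.036 for 10 to 30 kb to 0.10 for 500 kb or more.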

How the data were processed

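Nuclear RNA of 6 libraries was counted. The authors deposited 1 table of raw counts per NCBI gene identifier, made with Subread on mm10, per the submitters' processing notes. Not given in the sources used here are the annotation, the strand setting and whether introns were counted. Symbols and positions came from RefSeq (GRCm38.p6, 24570 of 24594 entries matched), and exon lengths from GENCODE M21 (GRCm38), as the union of exons over isoforms. Of all counts, 26.0% fell on 1 entry.

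The tests ran in edgeR 4.0.16 under R 4.3.3. FilterByExpr kept 13115 genes (99.8% of counts), TMM scaled the libraries (0.982 to 1.02), and robust quasi-likelihood fits tested genotype over all 6 libraries. P-values were adjusted over all tested genes by Benjamini-Hochberg, and a gene was called below 0.05. CPM used the library total times the TMM factor. Exact permutation tests (scipy 1.17.1) were two-sided on log2(CPM + 0.5). Alternatives were library size alone, RLE factors, DESeq2 1.42.0, limma-voom (limma 3.58.1), no filter, library sizes without the 4 largest entries, a replicate block, and leaving out each library. The fits were tested on simulated data.

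Members and lists were chosen with earlier results of these data known. The text names all members and, for all but Cbln2, their overlapping genes in RefSeq and nearest counted neighbours that were tested. Neighbours, overlaps and promoter windows of Cbln2 were not searched. As no pathway list had a called gene, the 2 genes of smallest p in each are named. Marker lists are given by their sums, with the called markers, and Gabra6, Itpr1, Pcp2 and Eomes were picked after their values were seen. Gm2694 and a few untested genes are named for their place or count.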

Additional observations from a re-analysis of the deposited data

How the results depend on the processing

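No member was called under any of the 13 alternatives, and Grid1 kept a positive sign in all of them (DESeq2 gave it no adjusted p). The estimates of the other 4 tested members lie so near 0 that their sign moved. That of Cbln1 was 0.027 with library size alone. Without 1 library each the estimates ran from -0.052 to 0.053 for Cbln1, -0.11 to 0.010 for Cbln3, -0.028 to 0.045 for Nrxn2 and -0.012 to 0.039 for Nrxn3. The sign of the pathway gene Khdrbs2 moved too, with -0.14 to 0.22 without 1 library each. Ezh1 lost its call when WT replicate 3 was left out (log2 fold change -0.47, adjusted p = 0.115), and likewise for cKO replicate 1 (-0.53, 0.0833), with all libraries at -0.53. Of pathway genes, 1 was called lower with no filter on low counts and 0 otherwise. Over all genes, 42 were called higher and 34 lower, and the cause of the following shifts was not tested: 69 higher with library size alone, 54 lower with DESeq2, 23 and 19 with limma-voom, and 146 and 131 with no filter. Without 1 library they ran from 10 to 116 higher and from 3 to 133 lower. The median of genes of 500 kb or more stayed between 0.047 and 0.14 over these fits, an alternative chosen after seeing the data, and was 0.056 for 250 kb or more. The level of Cbln3 over Nrxn2 was 0.796 per kb of exon and 6.01 per kb of span.

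Deviations of same-numbered libraries correlated at 0.15, 0.0053 and -0.038, and those of differently numbered libraries at -0.10 to 0.11. The value of 0.15 was that of replicate 1, which Xist also set apart in both genotypes. These values do not settle whether replicate numbers pair the samples. With replicate number as a block, 49 genes were called higher and 41 lower, 0 of them members, and the log2 fold change of Grid1 was 0.18 (adjusted p = 0.716). Depth limits Cbln2 and Cbln4, with 11 and 7 counts in all.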
